A study of Mus musculus with 8 samples.

Results

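The genes described here are 38 genes of mitosis and the kinetochore, chosen by name, in mouse embryonic stem (ES) cells with mutations of Gtf2i, of Hprt or of both. They were chosen with earlier results of these data known. A gene entered when the platform annotation paired a probe set with its symbol alone, which held for 37 of the 38 genes among 18193 genes in all, while cyclin B1 (Ccnb1) was not analysed here. The brightest probe set stood for each gene, and all 37 passed the filter on low values because each lay above the filter level on all 8 arrays. The study asked how mutation of Gtf2i, which encodes the transcription factor TFII-I, alters gene expression in these cells, and it used 8 Affymetrix arrays in 4 groups of 2. The wild-type group was labelled wild-type ES cells, with no line named. The exon 2 mutant was the Gtf2i Mutant line, a gene-targeted derivative of R1 cells with the genotype Δexon2/+. The Hprt knockout, titled HPRTKO, had the genotype HPRT -/-, and Hprt encodes an enzyme of purine salvage. The GTF2iTrap line (the trap line below) was a gene trap derivative of AB2.2 cells with the genotype HPRT -/-:GTF2I +/-, so that it carried the Hprt mutation beside the Gtf2i trap. Each group was 1 line, all lines were grown with LIF on a monolayer of feeder cells, and the arrays of the exon 2 mutant were registered apart from the others. Line, clone, batch and genotype therefore cannot be told apart. The labels call the arrays of a group biological replicates without saying whether these were separate cultures, and the p-values below reflect only the array-to-array spread, which may be technical.

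Cells enter mitosis when cyclin-dependent kinase 1, with its A- and B-type cyclins, is activated by Cdc25 phosphatases, and the Polo-like and Aurora kinases then build the spindle. Kinetochores assemble on centromeric chromatin and hold microtubules through the Ndc80 complex, while checkpoint proteins at unattached kinetochores restrain the anaphase-promoting complex until all chromosomes are attached. Anaphase begins when that complex marks securin and B-type cyclins for destruction and separase cuts cohesin. Embryonic stem cells divide fast with short gap phases, and many of these genes are transcribed mainly in the G2 and M phases, through a promoter element called the cell cycle homology region that often lies near CCAAT boxes bound by the factor NF-Y.

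The promoters of 6 members are shown because these genes had the largest differences between the exon 2 mutant and wild-type, described below. Each stretch runs from 120 bases before to 30 bases after the annotated start, 5′ to 3′ on the strand of the gene, from RefSeq on build GRCm38.p6. Capitals mark matches on either strand. One motif was CCAAT, which appears as ATTGG when it lies on the other strand. The second motif was the core of the cell cycle homology region, TTTGAA or its variant TTCGAA, and a match to the former on the other strand appears as TTCAAA. The stretches lie at chr17:71526828-71526977, minus strand (Ndc80), chr9:83834569-83834718, plus strand (Ttk), chr3:135212443-135212592, plus strand (Cenpe), chr19:37376262-37376411, plus strand (Kif11), chr2:127831830-127831979, minus strand (Bub1), and chr13:104228491-104228640, plus strand (Cenpk, the first of 3 promoters listed).
Ndc80: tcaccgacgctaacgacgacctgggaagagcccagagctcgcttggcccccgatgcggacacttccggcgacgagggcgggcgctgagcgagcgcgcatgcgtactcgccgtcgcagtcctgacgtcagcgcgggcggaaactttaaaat
Ttk: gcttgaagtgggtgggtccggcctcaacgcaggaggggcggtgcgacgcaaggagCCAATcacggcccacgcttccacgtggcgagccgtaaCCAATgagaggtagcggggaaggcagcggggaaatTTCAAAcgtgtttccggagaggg
Cenpe: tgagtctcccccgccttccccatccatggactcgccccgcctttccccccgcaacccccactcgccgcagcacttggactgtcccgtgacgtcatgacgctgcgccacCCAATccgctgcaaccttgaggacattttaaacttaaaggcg
Kif11: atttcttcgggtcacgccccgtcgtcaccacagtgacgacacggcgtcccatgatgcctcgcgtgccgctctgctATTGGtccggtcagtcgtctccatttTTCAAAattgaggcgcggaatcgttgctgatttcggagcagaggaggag
Bub1: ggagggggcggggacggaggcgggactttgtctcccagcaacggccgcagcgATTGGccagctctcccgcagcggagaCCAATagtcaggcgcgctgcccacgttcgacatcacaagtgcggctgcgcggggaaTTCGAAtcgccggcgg
Cenpk: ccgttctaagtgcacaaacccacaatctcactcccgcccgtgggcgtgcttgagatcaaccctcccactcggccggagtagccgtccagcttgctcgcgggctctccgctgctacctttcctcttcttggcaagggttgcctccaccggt

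In the printed stretches Ttk held CCAAT at positions -65 and -28 from the start and TTTGAA at position 8. Kif11 held CCAAT at -45 and TTTGAA at -19. Bub1 held CCAAT at -68 and -42 and TTCGAA at 15, and Cenpe held CCAAT at -12. Neither motif lay wholly within the stretches of Ndc80 and Cenpk. In the wider search described next, Ndc80 held TTTGAA from position 30, where its printed stretch ends. Cenpk held CCAAT at -159 in the promoter printed in part, and at -65 and -40 in another of its promoters. RefSeq promoters were matched for 30 of the 37 genes, 34 promoters in all, and were searched over 300 bases, from 250 before to 50 after the start. TTTGAA or TTCGAA occurred in 25 of the 34, which is 73.5%, against 19.2% of all 32851 promoters in the table. CCAAT occurred in 27 of them (79.4%), against 37.4% of all promoters. Both occurred together in 22 (64.7%), against 7.5% of all. Promoters of Bub3 and of Prc1 overlap and share sites, and with 1 promoter per gene 23 of 30 genes held the former motif, 23 held CCAAT and 20 held both. Most matches lay near the start: in the first promoter listed for each of the 30 genes, 23 of 30 matches to TTTGAA or TTCGAA lay between -50 and 50, and 32 of 46 matches to CCAAT lay between -100 and -1. Positions of matches in other promoters were not counted, so these shares are not set against a background. Of 100 promoters of other mitosis genes 43.0% held TTTGAA or TTCGAA, as did 20.0% of 30 promoters of DNA replication genes and 16.7% of 12 promoters of stem cell markers. A match is a run of letters, not a measured binding site, and no binding was measured in these cells.

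Values are deposited log2 intensities, normalised by the authors with RMA, so that a difference of 1 is a 2-fold difference in signal. Signals of different probe sets are not comparable as transcript levels. The 2 arrays of a group correlated at 0.997 to 0.998 over all genes, and the members' SD between them had a median of 0.034 and reached 0.28 for Aurkb in the exon 2 mutant. Hprt, the enzyme named in the knockout's label, had mean levels of 12.08 (wild-type), 12.25 (exon 2 mutant), 10.04 (knockout) and 10.74 (trap line). Gtf2i had mean levels of 10.12, 10.48, 10.90 and 10.09 in the same order, and since the place of its probes relative to the mutations was not analysed here, these values check neither Gtf2i label. The 10 stem cell markers lay above the filter level on every array, with list means of 11.87 to 12.39. The 17 feeder fibroblast markers on the array had list means of 11.17 to 11.67 in the wild-type, exon 2 mutant and trap arrays, all 17 above the filter level. In the Hprt knockout the feeder list means were 6.91 and 6.90, with 15 of 17 above the filter level. Fewer cells of a type and less RNA per cell cannot be told apart in such bulk samples. The knockout arrays also stood apart over all genes, with correlations of 0.866 to 0.92 with other groups, against 0.967 to 0.979 among the other groups.

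The members formed a shared pattern over the 4 lines. Their list mean was 10.27 and 10.32 on the wild-type arrays, 10.74 and 10.74 on the exon 2 mutant arrays, 10.94 and 10.95 on the Hprt knockout arrays, and 10.18 and 10.18 on the trap arrays. In 33 of 37 members, both knockout and both exon 2 mutant arrays lay above all wild-type and trap arrays. The share of all genes with that arrangement was not counted. Separation of single pairs of groups was common. Of 13819 genes tested, 7598 had both knockout arrays above both wild-type arrays, and 5906 had both exon 2 mutant arrays above them. The group mean was highest in the Hprt knockout for 30 members and in the exon 2 mutant for the other 7, which were Ndc80, Cenpf, Cenpk, Kif11, Prc1, Ttk and Ube2c. The trap line had the lowest mean for 24 members, wild-type for 11 and the exon 2 mutant for 2 (Aurkb and Bub3). The order knockout, exon 2 mutant, wild-type, trap held for 19 members, and the same order with the last 2 exchanged held for 8. The share of all genes with each highest line, lowest line or order was not counted. Of the 13819 genes tested, 8691 had a higher mean in the knockout than in wild-type. A lower mean in the trap line than in the knockout was found for 8460.

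**Figure D1:**
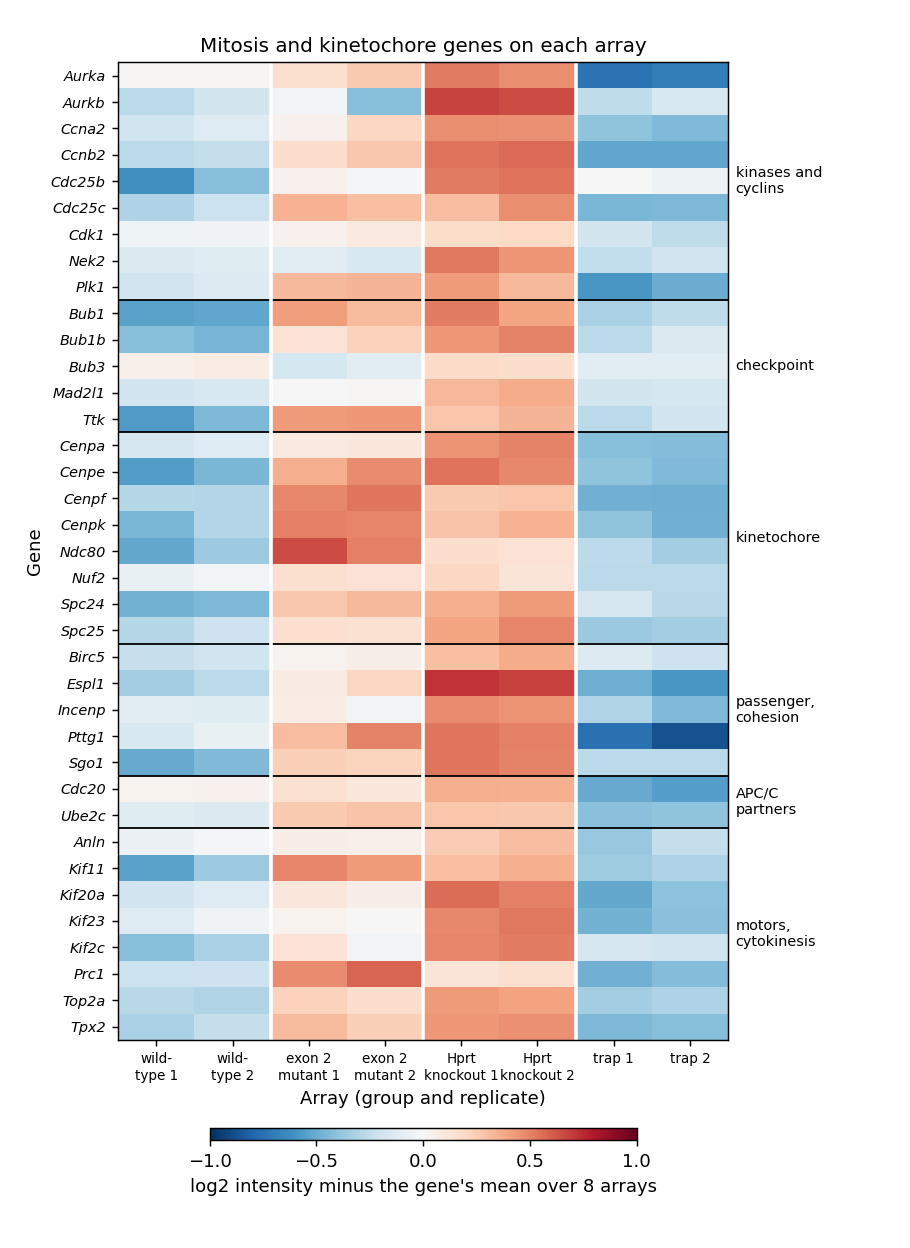
Log2 intensity of each of the 37 genes on each of the 8 arrays, after subtraction of the gene's mean over all arrays, with genes in rows grouped by role and arrays in columns. The exon 2 mutant and Hprt knockout arrays lie above the wild-type and trap arrays in 33 of 37 genes, and the share over all genes was not counted.

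Against wild-type, the exon 2 mutant had higher signal for most members, among them all 8 kinetochore and centromere members. Of the 37, 29 rose, 1 (Bub3) fell and 7 did not pass (limma, adjusted p under 0.05 over 13819 genes). Among all genes 55.5% were called, 32.5% higher and 23.1% lower. Over all genes 4485 were higher and 3189 lower, or 3519 and 4204 after cyclic loess, another scaling of the arrays. The median member difference was 0.45 against 0.03 over all genes. At 1.5-fold or more, 12 members rose and 0 fell, against 18.4% of all genes called at that size, 10.7% higher and 7.66% lower. Under 17 alternatives 22 of the 30 calls held throughout, and those of Aurka, Birc5, Bub3, Ccna2, Cenpa, Kif20a, Mad2l1 and Nuf2 ended under at least 1. The median difference by role was 0.78 in the kinetochore and centromere genes, 0.63 in the checkpoint genes, 0.46 in the spindle, chromosome and cytokinesis genes, 0.45 in the passenger and cohesion genes, 0.29 in the kinases and cyclins and 0.25 over Cdc20 and Ube2c. The feeder list moved the other way, with 15 of 17 markers lower and a median of -0.46. Of 10 stem cell markers 7 rose and 1 fell, with a median of 0.27. Of 6 endoderm markers 5 fell, all 5 by 1.5-fold or more, with a median of -0.77. The part of these lists in the result was not tested. With arrays centred on the stem cell markers, an alternative added after the data were seen, 22 members rose and 0 fell.

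In the Hprt knockout against wild-type, 36 members rose and 0 fell, and only Bub3 did not pass (difference 0.12 ± 0.05, adjusted p = 0.0665). Among all genes 71.5% were called, 46.4% higher and 25.1% lower. Over all genes 6409 were higher and 3467 lower, or 4450 and 5038 after cyclic loess. The median member difference was 0.64 against 0.16 over all genes, and 23 members rose by 1.5-fold or more, where 38.4% of all genes were called at that size, 22.9% higher and 15.6% lower. Beside these rises, all 17 feeder markers fell, with a median of -4.71, while 7 of 10 stem cell markers rose and 2 fell. Of 6 endoderm markers 3 rose and 1 fell. With arrays centred on the stem cell markers the counts were again 36 higher and 0 lower, and the members' median moved from 0.64 to 0.73. That centring is no test of the part of the feeder difference, which was not tested. Cyclic loess shifted the median of all genes by -0.19, ended the calls of Cdk1, Anln, Prc1 and Nuf2, and left 10 members past 1.5-fold. Relative to all genes, the median member difference was 0.48 as deposited and 0.45 after loess.

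Against wild-type, the trap line differed in both directions, with more members lower than higher. Members higher were 6, members lower 18, and 13 did not pass, where 41.1% of all genes were called, 26.5% higher and 14.6% lower. Over all genes 3662 were higher and 2011 lower, or 2792 and 2798 after cyclic loess. The 6 that rose were Cdc25b, Bub1, Bub1b, Ttk, Spc24 and Sgo1, and of these only Cdc25b kept its call under all 17 alternatives. Of all 24 calls, 9 did so and 15 ended under at least 1. Only Aurka and Pttg1 fell by 1.5-fold or more, where 11.2% of all genes were called at that size, 6.82% higher and 4.34% lower. The median member difference was -0.17 against 0.05 over all genes. The split moved with the scaling, to 2 higher and 22 lower after cyclic loess and to 1 higher and 14 lower with arrays centred on the stem cell markers. The count fell to 12 without either wild-type array and to 13 without either trap array. Of the feeder markers 3 rose and 8 fell, 7 stem cell markers rose, and of 6 endoderm markers 2 rose and 3 fell. The part of these lists in the result was not tested.

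Against the Hprt knockout, whose Hprt genotype it shares, the trap line had lower signal for all 37 members, in each case with both trap arrays below both knockout arrays. The same separation held for 7283 of all 13819 genes tested. Among all genes 68.4% were called, 26.6% higher and 41.8% lower. Over all genes 3675 were higher and 5774 lower, or 4774 and 4154 after cyclic loess. The median member difference was -0.76 against -0.13 over all genes, and -0.63 relative to all genes (-0.61 after cyclic loess, which shifted the median of all genes by 0.15). At 1.5-fold or more, 29 members fell, against 32.5% of all genes called at that size, 15.8% higher and 16.7% lower, and 19 did so when all probe sets of a gene were averaged. All 17 feeder markers were higher in the trap line, with a median of 4.51, while stem cell markers split into 4 higher and 4 lower. Of 6 endoderm markers 2 were higher and 3 lower. With arrays centred on the stem cell markers, 37 members fell, and their median moved from -0.76 to -0.92. That centring is no test of the part of the feeder difference, which was not tested.

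**Figure D2:**
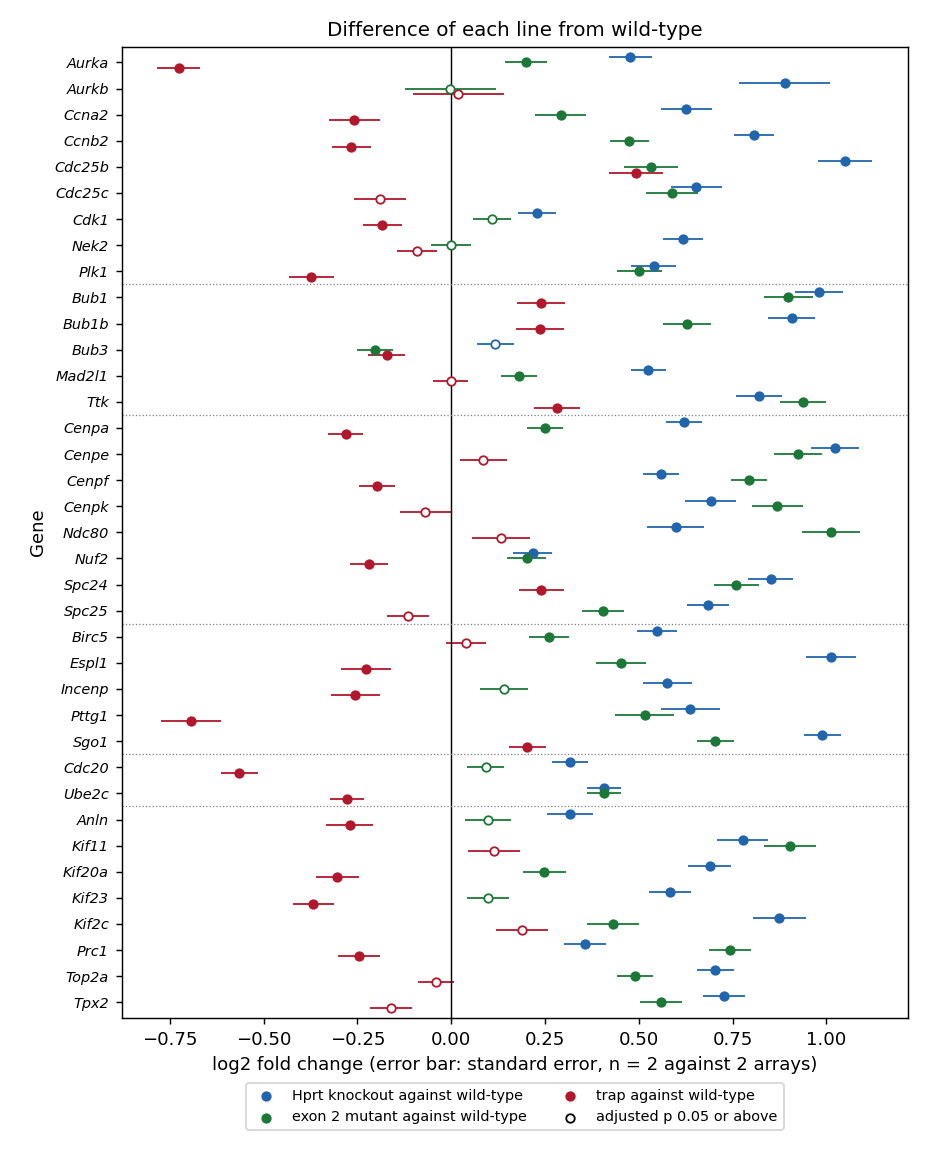
Log2 fold change of the exon 2 mutant, Hprt knockout and trap line against wild-type for each of 37 genes, with bars for the standard error (2 against 2 arrays) and open symbols where the adjusted p was 0.05 or above. The exon 2 mutant and knockout points lie to the right of 0 for nearly every gene, and the trap points lie on both sides.

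The 2 lines with a Gtf2i mutation lay on opposite sides of the lines they are set against here. The difference of both comparisons, which share no array, passed for 36 of 37 members and was positive in each, with a median of 1.24 against 0.16 over all genes, of which 69.7% were called, 42.6% higher and 27% lower. Over all genes 5889 were higher and 3737 lower, or 4371 and 5033 after cyclic loess. That scaling shifted the median of all genes by -0.21, and the members' median relative to all genes was 1.08 as deposited and 1.07 after loess. Bub3 was the exception (0.09 ± 0.07, adjusted p = 0.304). The 8 members with the largest difference were Cenpe (1.86), Pttg1 (1.85), Espl1 (1.69), Bub1 (1.64), Cenpk (1.63), Kif11 (1.56), Cenpf (1.55) and Ccnb2 (1.55). Across the 37 genes, which are not independent replicates, the signed log2 fold changes of both comparisons had a Pearson r of -0.01 and a Spearman rho of 0.04.

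**Figure D3:**
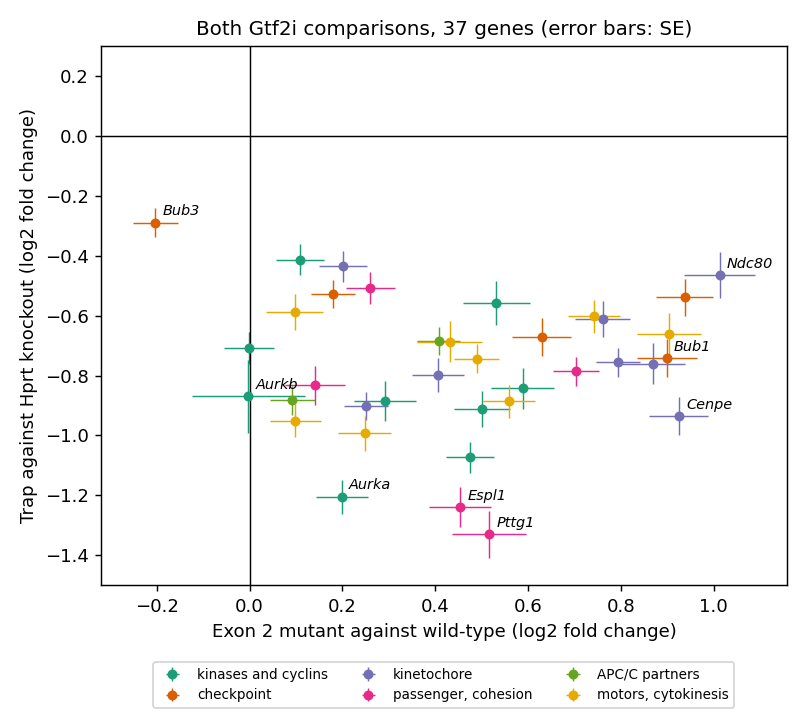
Log2 fold change of the trap line against the Hprt knockout (vertical) plotted against that of the exon 2 mutant against wild-type (horizontal) for 37 genes, coloured by role, with bars for the standard error. All points lie below 0 on the vertical axis, and 34 lie to the right of 0 on the horizontal axis.

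Set against each other directly, the exon 2 mutant had higher signal than the trap line for 33 members and lower for 0, with 4 not passing (Aurkb, Cdc25b, Nek2 and Bub3), where 49.2% of all genes were called, 24.5% higher and 24.7% lower. The median was 0.55 against -0.01 over all genes, and 17 members were at least 1.5-fold higher, where 14.8% of all genes were called at that size, 7.38% higher and 7.42% lower. Beside this, 4 of 17 feeder markers were higher and 8 lower in the exon 2 mutant, with a median of -0.13, and 5 of 6 endoderm markers were lower, with a median of -0.53. Of 10 stem cell markers 0 were higher and 3 lower. The part of these lists in the result was not tested.

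Setting the exon 2 mutant against the Hprt knockout gave 22 members lower, 3 higher (Ndc80, Prc1 and Cenpf) and 12 not passing, where 61.2% of all genes were called, 24.9% higher and 36.3% lower. Over all genes 3442 were higher and 5013 lower, or 4579 and 3492 after cyclic loess. That scaling shifted the median of all genes by 0.13 and gave 18 members lower and 6 higher. The median was -0.23 against -0.09 over all genes, and only Aurkb and Nek2 were lower by 1.5-fold or more, where 24.8% of all genes were called at that size, 13.3% higher and 11.5% lower. That count ranged from 1 to 5 over the alternatives, and was 1 without the first knockout array. Relative to all genes, the median member difference was -0.14 as deposited and -0.03 with all probe sets of a gene averaged, where 17 members were lower and 2 higher. All 17 feeder markers were higher in the exon 2 mutant, with a median of 4.38, and all 6 endoderm markers were lower, with a median of -0.82. Of 10 stem cell markers 3 were higher and 5 lower. The part of these lists in the result was not tested.

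All 8 kinetochore and centromere genes rose in the exon 2 mutant, 5 of them by 1.5-fold or more, and all 8 rose in the knockout. The calls of Nuf2 and Cenpa depended on the processing, as given beside each. Ndc80, which encodes the microtubule-binding subunit that names the Ndc80 complex, read 8.43 and 8.58 in wild-type, 9.59 and 9.44 in the exon 2 mutant, 9.11 and 9.09 in the knockout and 8.68 and 8.59 in the trap line. Both exon 2 mutant arrays lay above all others, and the trap arrays lay close above wild-type. Ndc80 rose by 1.01 ± 0.08 (adjusted p = 7.1e-05) in the exon 2 mutant, a fold of 2.02, and by 0.60 ± 0.08 (adjusted p = 0.000307) in the knockout. It fell by 0.46 ± 0.08 (adjusted p = 0.0013) in the trap line against the knockout. Nuf2, the partner of Ndc80 in the outer part of the complex, had log2 values of 8.96 and 9.01 (wild-type), 9.20 and 9.18 (exon 2 mutant), 9.24 and 9.17 (knockout) and 8.77 and 8.77 (trap line). The rise of Nuf2 was smaller, 0.20 ± 0.05 (adjusted p = 0.0141) in the exon 2 mutant and 0.22 ± 0.05 (adjusted p = 0.00706) in the knockout, but after cyclic loess these differences were 0.06 and -0.06 and neither passed. In the exon 2 mutant the call of Nuf2 ended under 5 of 17 alternatives, among them those without the first wild-type array or the first exon 2 mutant array. Spc24, an inner subunit that ties the complex to the centromere, gave 9.91 and 9.93 on the wild-type arrays, 10.65 and 10.70 on the exon 2 mutant arrays, 10.73 and 10.80 on the knockout arrays and 10.22 and 10.10 on the trap arrays. Spc24 was higher in all 3 mutant lines than in wild-type, by 0.76 ± 0.06 (adjusted p = 8.17e-05) in the exon 2 mutant, 0.85 ± 0.06 in the knockout and 0.24 ± 0.06 in the trap line, where the call ended under 6 of 17 alternatives. Spc25, its partner, rose by 0.41 ± 0.06 in the exon 2 mutant and 0.68 ± 0.06 in the knockout, with a difference of -0.11 ± 0.06 in the trap line that did not pass (adjusted p = 0.15).

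Cenpe, a kinesin motor that carries chromosomes along microtubules to the spindle equator, read 9.03 and 9.13 in wild-type, 9.95 and 10.05 in the exon 2 mutant, 10.13 and 10.07 in the knockout and 9.18 and 9.14 in the trap line. The knockout arrays lay just above the exon 2 mutant arrays, and the trap arrays just above wild-type. Cenpe rose by 0.92 ± 0.06 (adjusted p = 4.98e-05) in the exon 2 mutant and by 1.02 ± 0.06 (adjusted p = 7.82e-06) in the knockout, and it fell by 0.94 ± 0.06 (adjusted p = 1.5e-05) in the trap line against the knockout. Cenpf, a large protein of the outer kinetochore, had log2 values of 9.97 and 9.96 (wild-type), 10.73 and 10.79 (exon 2 mutant), 10.52 and 10.53 (knockout) and 9.77 and 9.77 (trap line). Its exon 2 mutant arrays were the highest and its trap arrays the lowest, with no overlap between any pair of groups. Cenpf was higher in the exon 2 mutant than in the knockout by 0.23 ± 0.05 (adjusted p = 0.00427), or by 0.05 with all its probe sets averaged, which did not pass. Cenpk, a subunit of the inner kinetochore that rests on centromeric chromatin, had group means of 9.12 ± 0.12 (wild-type), 9.99 ± 0.01 (exon 2 mutant), 9.81 ± 0.04 (knockout) and 9.05 ± 0.05 (trap line), each ± SD of 2 arrays. Cenpk rose by 0.87 ± 0.07 (adjusted p = 8.08e-05) in the exon 2 mutant, and its trap and wild-type arrays overlapped. Cenpa, the histone H3 variant that marks centromeres, read 11.09 and 11.13 in wild-type and 11.71 and 11.75 in the knockout, a rise of 0.62 ± 0.05 (adjusted p = 2.1e-05). Its rise in the exon 2 mutant was 0.25 ± 0.05, and in the trap line it fell by 0.28 ± 0.05 (adjusted p = 0.00347) against wild-type. With all 3 probe sets of Cenpa averaged, the other 2 of which lay below the filter, none of these calls held. The differences were then 0.01 in the knockout (adjusted p = 0.908), 0.05 in the exon 2 mutant (adjusted p = 0.681) and -0.26 in the trap line (adjusted p = 0.0592).

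Of the 5 checkpoint genes, 4 rose in the exon 2 mutant and 4 in the knockout, and Bub3 rose in neither. Bub1, a kinase that marks the centromere and recruits other checkpoint proteins, gave 10.38 and 10.40 on the wild-type arrays, 11.34 and 11.24 on the exon 2 mutant arrays, 11.43 and 11.31 on the knockout arrays and 10.59 and 10.66 on the trap arrays. Arrays of the exon 2 mutant and knockout overlapped, and the trap arrays lay between them and wild-type. Bub1 rose by 0.90 ± 0.06 (adjusted p = 5.74e-05) in the exon 2 mutant, by 0.98 ± 0.06 (adjusted p = 1.03e-05) in the knockout and by 0.24 ± 0.06 (adjusted p = 0.0236) in the trap line. The call in the trap line ended under 8 of 17 alternatives, among them those without either wild-type or either trap array, and the difference was 0.03 with averaged probe sets (adjusted p = 0.839). Ttk, the kinase Mps1 that starts checkpoint signalling, read 9.41 and 9.53 in wild-type, 10.40 and 10.41 in the exon 2 mutant, 10.26 and 10.32 in the knockout and 9.71 and 9.79 in the trap line. All groups were separate, with the trap line between wild-type and the knockout, and Ttk rose by 0.94 ± 0.06 (adjusted p = 4.14e-05) in the exon 2 mutant. Bub1b, or BubR1, which binds and inhibits Cdc20, rose by 0.63 ± 0.06 in the exon 2 mutant, 0.91 ± 0.06 in the knockout and 0.24 ± 0.06 in the trap line, the last lost under 7 of 17 alternatives. Mad2l1, the other inhibitor of Cdc20, had log2 values of 11.48 and 11.51 (wild-type), 11.67 and 11.69 (exon 2 mutant), 12.005 and 12.04 (knockout) and 11.49 and 11.50 (trap line). Mad2l1 was higher by 0.18 ± 0.05 in the exon 2 mutant and 0.53 ± 0.05 in the knockout, and the trap and wild-type arrays overlapped. The former became 0.09 after cyclic loess and ended under 6 of 17 alternatives. Bub3, a scaffold that brings Bub1 and BubR1 to kinetochores, gave 12.18 and 12.20 on the wild-type arrays, 11.95 and 12.02 on the exon 2 mutant arrays, 12.31 and 12.30 on the knockout arrays and 12.01 and 12.02 on the trap arrays. Arrays of the exon 2 mutant and trap line overlapped below wild-type, and Bub3 fell by 0.20 ± 0.05 (adjusted p = 0.011) in the exon 2 mutant and by 0.17 ± 0.05 (adjusted p = 0.0289) in the trap line. Neither fall was stable: with averaged probe sets the former was -0.03 (adjusted p = 0.677), and the latter ended under 7 of 17 alternatives, among them the replicate block and those without any 1 wild-type or trap array.

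Cdc20 and Ube2c work with the anaphase-promoting complex, as its activator and as the enzyme that supplies ubiquitin. Cdc20 read 12.81 and 12.81 in wild-type, 12.93 and 12.88 in the exon 2 mutant, 13.13 and 13.12 in the knockout and 12.27 and 12.22 in the trap line. Cdc20 fell in the trap line by 0.56 ± 0.05 (adjusted p = 0.000207) against wild-type and by 0.88 ± 0.05 (adjusted p = 5.26e-06) against the knockout. It rose by 0.32 ± 0.05 (adjusted p = 0.000772) in the knockout, and its difference of 0.09 ± 0.05 in the exon 2 mutant did not pass (adjusted p = 0.15). Ube2c had log2 values of 12.56 and 12.53 (wild-type), 12.95 and 12.96 (exon 2 mutant), 12.96 and 12.95 (knockout) and 12.26 and 12.28 (trap line). Ube2c arrays of the exon 2 mutant and knockout overlapped, each 0.41 ± 0.05 above wild-type, and the trap line lay below wild-type by 0.28 ± 0.05 (adjusted p = 0.00324).

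Among 9 kinases, cyclins and phosphatases tested, all 9 rose in the knockout and 6 in the exon 2 mutant. Aurka, the Aurora kinase of the spindle poles, gave 10.73 and 10.74 on the wild-type arrays, 10.88 and 10.99 on the exon 2 mutant arrays, 11.24 and 11.18 on the knockout arrays and 9.99 and 10.03 on the trap arrays. The trap arrays lay well below all others, and Aurka fell there by 0.73 ± 0.06 (adjusted p = 0.000135) against wild-type and by 1.20 ± 0.06 (adjusted p = 2.36e-06) against the knockout. Aurkb, the Aurora kinase that corrects faulty attachments, read 8.62 and 8.70 in wild-type, 8.86 and 8.46 in the exon 2 mutant, 9.56 and 9.54 in the knockout and 8.63 and 8.73 in the trap line. Only the knockout arrays of Aurkb stood apart, by 0.89 ± 0.12 (adjusted p = 0.00043) above wild-type, and the exon 2 mutant arrays spread on both sides of wild-type. Nek2, a kinase that separates the centrosomes, had log2 values of 10.11 and 10.13 (wild-type), 10.14 and 10.10 (exon 2 mutant), 10.78 and 10.70 (knockout) and 10.01 and 10.05 (trap line). Nek2 was likewise higher in the knockout alone, by 0.62 ± 0.05 (adjusted p = 3.84e-05), and its differences of the exon 2 mutant and trap line from wild-type did not pass (adjusted p = 0.989 and 0.219). Plk1, the Polo-like kinase of mitotic entry and spindle assembly, read 9.89 and 9.94 in wild-type, 10.41 and 10.42 in the exon 2 mutant, 10.51 and 10.41 in the knockout and 9.50 and 9.59 in the trap line. Plk1 rose by 0.50 ± 0.06 (adjusted p = 0.000479) in the exon 2 mutant and fell by 0.37 ± 0.06 (adjusted p = 0.00291) in the trap line against wild-type.

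Cdk1, the kinase that drives entry into mitosis, gave 11.69 and 11.70 on the wild-type arrays, 11.78 and 11.83 on the exon 2 mutant arrays, 11.92 and 11.93 on the knockout arrays and 11.55 and 11.48 on the trap arrays. Its differences were small beside those of its partners: 0.11 ± 0.05 in the exon 2 mutant (adjusted p = 0.114, not passed), a rise of 0.23 ± 0.05 (adjusted p = 0.0052) in the knockout and a fall by 0.18 ± 0.05 (adjusted p = 0.0266) in the trap line. The rise was 0.04 after cyclic loess (adjusted p = 0.542), and the fall ended under 7 of 17 alternatives, among them the replicate block and those without any 1 wild-type or trap array. Ccnb2, which encodes cyclin B2, read 11.15 and 11.18 in wild-type, 11.60 and 11.69 in the exon 2 mutant, 11.96 and 11.98 in the knockout and 10.90 and 10.90 in the trap line. No groups overlapped, and Ccnb2 rose by 0.48 ± 0.05 (adjusted p = 0.000326) in the exon 2 mutant and 0.81 ± 0.05 (adjusted p = 9.5e-06) in the knockout, while it fell by 1.07 ± 0.05 (adjusted p = 2.88e-06) in the trap line against the knockout. Cyclin A2 (Ccna2) rose by 0.29 ± 0.07 in the exon 2 mutant and 0.63 ± 0.07 in the knockout and fell by 0.26 ± 0.07 (adjusted p = 0.0211) in the trap line, with the call ended under 3 of 17 alternatives in the exon 2 mutant and 4 in the trap line. The 2 phosphatases that activate Cdk1 parted in the trap line. Cdc25b had log2 values of 6.86 and 7.05 (wild-type), 7.52 and 7.45 (exon 2 mutant), 7.99 and 8.02 (knockout) and 7.47 and 7.42 (trap line). All 3 mutant lines lay above wild-type for Cdc25b, by 0.53 ± 0.07 (adjusted p = 0.000824) in the exon 2 mutant, 1.05 ± 0.07 (adjusted p = 1.25e-05) in the knockout and 0.49 ± 0.07 (adjusted p = 0.00192) in the trap line. Cdc25c rose by 0.59 ± 0.07 in the exon 2 mutant and 0.65 ± 0.07 in the knockout, and its difference in the trap line was -0.19 ± 0.07 (adjusted p = 0.0634, not passed).

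Among the passenger complex and cohesion genes, all 5 rose in the knockout and 4 of 5 in the exon 2 mutant. Pttg1, which encodes securin, the protein that holds separase inactive until anaphase, gave 12.68 and 12.76 on the wild-type arrays, 13.14 and 13.33 on the exon 2 mutant arrays, 13.37 and 13.34 on the knockout arrays and 12.09 and 11.97 on the trap arrays. The trap arrays lay below all others, and the exon 2 mutant arrays lay above wild-type and below the knockout. Pttg1 rose by 0.52 ± 0.08 (adjusted p = 0.00145) in the exon 2 mutant and fell in the trap line by 0.69 ± 0.08 (adjusted p = 0.00068) against wild-type and by 1.33 ± 0.08 (adjusted p = 7.75e-06) against the knockout, the latter 2.52-fold lower. Espl1, which encodes separase, read 9.88 and 9.96 in wild-type, 10.31 and 10.43 in the exon 2 mutant, 10.95 and 10.91 in the knockout and 9.74 and 9.64 in the trap line. Its groups did not overlap, and Espl1 rose by 1.01 ± 0.07 (adjusted p = 1.03e-05) in the knockout and by 0.45 ± 0.07 (adjusted p = 0.0012) in the exon 2 mutant, and fell by 1.24 ± 0.07 (adjusted p = 4.78e-06) in the trap line against the knockout. Sgo1, the shugoshin that shields centromeric cohesin until anaphase, had log2 values of 9.46 and 9.53 (wild-type), 10.21 and 10.19 (exon 2 mutant), 10.50 and 10.46 (knockout) and 9.70 and 9.70 (trap line). Sgo1 was above wild-type in all 3 mutant lines, by 0.70 ± 0.05 (adjusted p = 5.23e-05) in the exon 2 mutant, 0.99 ± 0.05 (adjusted p = 2.65e-06) in the knockout and 0.20 ± 0.05 (adjusted p = 0.0155) in the trap line, the last lost under 6 of 17 alternatives. Birc5, the survivin subunit of the passenger complex, rose by 0.26 ± 0.05 in the exon 2 mutant and 0.55 ± 0.05 in the knockout. Incenp, the scaffold of that complex, rose by 0.58 ± 0.07 in the knockout, and its difference of 0.14 ± 0.07 in the exon 2 mutant did not pass (adjusted p = 0.107).

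**Figure D4:**
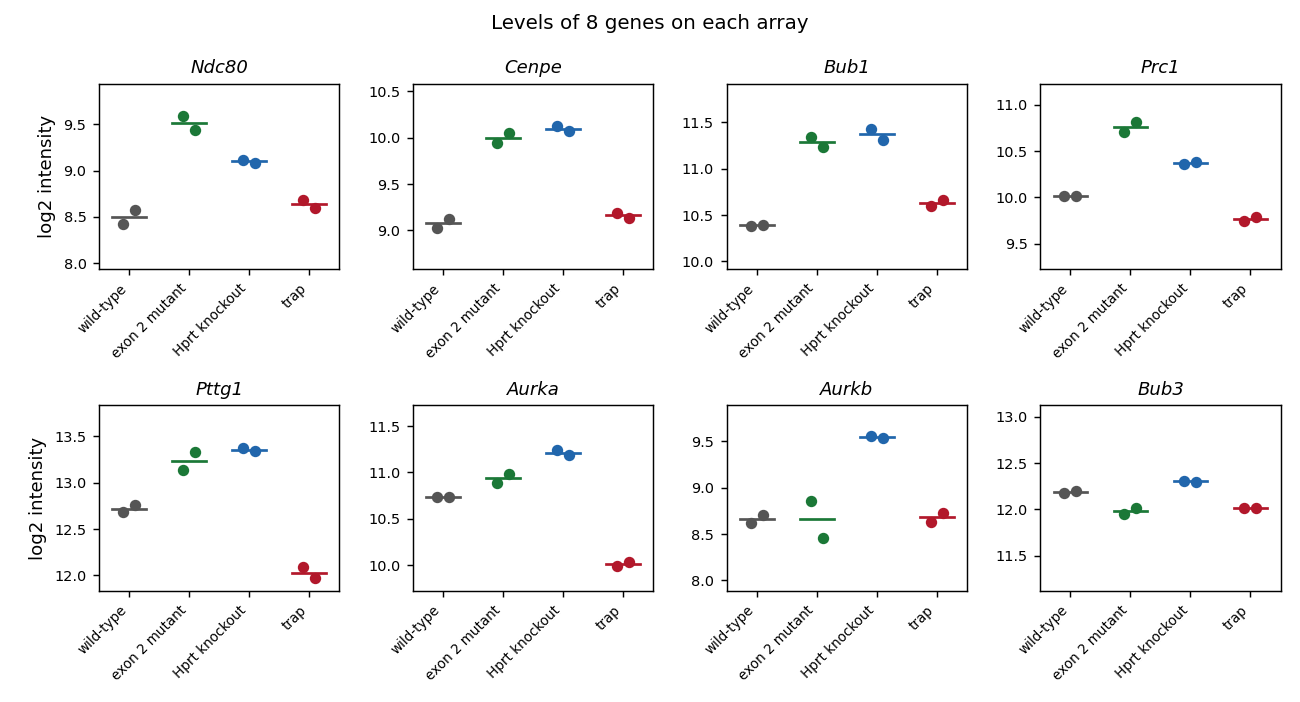
Log2 intensity of 8 genes on each of the 8 arrays, 2 points per group, on vertical axes that each span 2 log2 units around the gene's mean. The genes are Ndc80, Cenpe, Bub1, Prc1, Pttg1, Aurka, Aurkb and Bub3.

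Of the 8 spindle motor, chromosome structure and cytokinesis genes, all 8 rose in the knockout, 6 rose in the exon 2 mutant, and all 8 fell by 1.5-fold or more from the knockout to the trap line. Kif11, the kinesin that pushes the spindle poles apart, gave 9.07 and 9.24 on the wild-type arrays, 10.09 and 10.03 on the exon 2 mutant arrays, 9.91 and 9.95 on the knockout arrays and 9.25 and 9.29 on the trap arrays. Exon 2 mutant and knockout arrays lay above all wild-type and trap arrays, and Kif11 rose by 0.90 ± 0.07 (adjusted p = 7.41e-05) in the exon 2 mutant. Kif2c, a kinesin that shortens microtubules at centromeres, rose by 0.43 ± 0.07 in the exon 2 mutant and 0.87 ± 0.07 in the knockout. Tpx2, which activates Aurora A on the spindle, rose by 0.56 ± 0.06 and 0.73 ± 0.06 in these lines. Top2a, the topoisomerase that untangles sister chromosomes, read 12.17 and 12.14 in wild-type, 12.67 and 12.62 in the exon 2 mutant, 12.87 and 12.85 in the knockout and 12.10 and 12.13 in the trap line. The trap arrays of Top2a lay just below wild-type, and it rose by 0.49 ± 0.05 (adjusted p = 0.00021) in the exon 2 mutant.

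The cytokinesis genes differed among themselves. Prc1, which bundles microtubules of the central spindle, had log2 values of 10.01 and 10.02 (wild-type), 10.70 and 10.81 (exon 2 mutant), 10.36 and 10.39 (knockout) and 9.75 and 9.79 (trap line). Its exon 2 mutant arrays were the highest, by 0.39 ± 0.06 (adjusted p = 0.000853) above the knockout, and its trap arrays the lowest. Kif23, a kinesin of the central spindle, gave 9.33 and 9.43 on the wild-type arrays, 9.49 and 9.46 on the exon 2 mutant arrays, 9.94 and 9.98 on the knockout arrays and 8.98 and 9.04 on the trap arrays. Both exon 2 mutant arrays of Kif23 lay above wild-type by only 0.10 ± 0.06 (adjusted p = 0.174, not passed), and the trap line fell by 0.37 ± 0.06 (adjusted p = 0.00224) against wild-type. Kif20a, another kinesin of the central spindle, rose by 0.25 ± 0.06 in the exon 2 mutant and 0.69 ± 0.06 in the knockout and fell by 0.30 ± 0.06 (adjusted p = 0.00575) in the trap line. Anln, which encodes the contractile ring protein anillin, rose by 0.32 ± 0.06 (adjusted p = 0.00266) in the knockout and fell by 0.27 ± 0.06 (adjusted p = 0.0122) in the trap line, and did not pass in the exon 2 mutant (0.10 ± 0.06, adjusted p = 0.221). After cyclic loess its difference in the knockout was 0.10 (adjusted p = 0.181), and the fall in the trap line ended without the second wild-type array or the first trap array.

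Other probe sets of the members mostly had the same sign. Among 37 further probe sets of 24 members that passed the filter, the sign was that of the brightest probe set for 28 in the exon 2 mutant against wild-type, 34 in the knockout against wild-type, 28 in the trap line against wild-type and 37 in the trap line against the knockout. A call in the opposite direction arose in the exon 2 mutant against the knockout for Sgo1 (-0.29 and 0.20), Top2a (-0.21 and 0.29) and Tpx2 (-0.17 and 0.19), and in the trap line against wild-type for Incenp (-0.26 and 0.32). For these 4 members no direction is settled in those comparisons.

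Other genes of mitosis, from a list of 103 of which 100 were tested, were also mostly higher in the exon 2 mutant and the knockout. In the exon 2 mutant 72 rose and 5 fell, with a median of 0.36, where 32.5% of all genes rose and 23.1% fell. The largest rises were in Nsl1 (1.21 ± 0.10), a subunit of the kinetochore's Mis12 complex, Sgo2a (0.98 ± 0.07), a shugoshin, and Fbxo5 (0.93 ± 0.05), an inhibitor of the anaphase-promoting complex. The largest falls were in Zwint (-0.57 ± 0.05), a kinetochore protein, E2f4 (-0.28 ± 0.07), a transcription factor of the cell cycle, and Mad1l1 (-0.26 ± 0.08), the partner of Mad2. In the knockout, where 46.4% of all genes rose and 25.1% fell, 79 rose and 3 fell. The rises were led by Ska3 (1.35 ± 0.13), which helps kinetochores hold microtubules, Kif18b (1.30 ± 0.05), a kinesin, and Ccnf (1.27 ± 0.06), a cyclin F-box protein. The falls there were in Ensa (-0.28 ± 0.07), Zwint (-0.24 ± 0.05) and Anapc4 (-0.21 ± 0.07), a subunit of the anaphase-promoting complex.

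In the trap line against wild-type 21 of the 100 rose, 8 fell and 71 did not pass, against 26.5% of all genes higher and 14.6% lower. Against the knockout 5 rose and 79 fell, with a median of -0.46, where 26.6% of all genes were higher and 41.8% lower. The largest falls against the knockout were in the condensin subunit Ncapd2 (-1.43 ± 0.05), Kif18b (-1.26 ± 0.05) and the kinase Melk (-1.19 ± 0.06). Rbl2, which encodes the pocket protein p130, was the largest rise both against the knockout (0.75 ± 0.14) and against wild-type (0.58 ± 0.14). Against wild-type the falls were led by Cenpm (-0.64 ± 0.06), Cenpp (-0.40 ± 0.05), both of the inner kinetochore, and Nusap1 (-0.39 ± 0.07), a spindle protein. The 31 DNA replication genes tested had 27 higher and 2 lower in the exon 2 mutant, where 32.5% of all genes were higher and 23.1% lower. In the knockout 30 were higher and 0 lower, where 46.4% of all genes were higher and 25.1% lower. All 31 were lower in the trap line against the knockout, where 41.8% of all genes were lower. Against wild-type the trap line had 8 higher, 4 lower and 19 not passing, with a median of 0.09. There 26.5% of all genes were higher and 14.6% lower. The list means of the replication genes were 10.36 and 10.40 in wild-type and 10.98 and 10.96 in the knockout. They were 10.81 and 10.83 in the exon 2 mutant and 10.47 and 10.45 in the trap line.

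**Figure D5:**
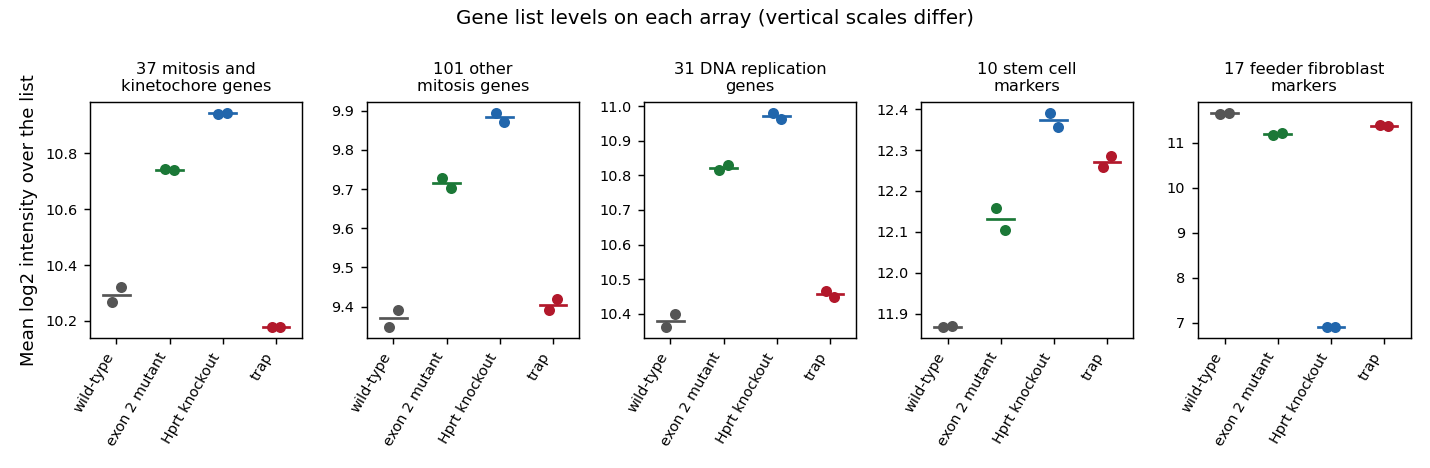
Mean log2 intensity of each gene list on each array, 2 points per group, with a vertical scale of its own in each panel. The lists of mitosis and replication genes are higher in the exon 2 mutant and Hprt knockout than in wild-type, and the feeder list drops to 6.91 and 6.90 in the Hprt knockout.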

How the data were processed

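Per the submitters' processing notes, the authors made the deposited log2 intensities of 45101 probe sets per array with RMA (version not given in the sources used here), which corrects background, normalises arrays by quantiles and summarises probes; a shift shared by most genes is therefore not visible. Arrays have no read depth, and 2 arrays per group limit the precision. Probe sets were named through the platform annotation. Each gene was represented by its brightest probe set (mean over 8 arrays), and 13819 of 18193 genes were tested, those above the array's 40th percentile (log2 5.35 on average) on at least 2 arrays. limma 3.58.1 in R 4.3.3 was fitted as 4 group means over all 8 arrays (lmFit, eBayes; 4 residual degrees of freedom, 6.86 after moderation), with two-sided p-values adjusted by Benjamini-Hochberg over all genes at 0.05, and 1.5-fold as a second criterion. With 2 against 2 arrays the smallest exact permutation p is 0.333, so that test was not used. Values are differences ± SE. The fit was run on simulated data with independent noise and planted changes, but no feeder or scaling shift. That run checks the code and not the calls made here. The members and gene lists were chosen with earlier results of these data known. All members could be named; of other mitosis genes, the 3 largest rises and falls per comparison were; promoters were printed for the 6 members with the largest difference in the exon 2 mutant.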

Additional observations from a re-analysis of the deposited data

Results flagged for a closer look

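The effects of the 2 Gtf2i comparisons (exon 2 mutant against wild-type, and trap line against Hprt knockout) differed for 36 of 37 members by a test of the difference itself in the same limma fit. The list of all genes tested gave 69.7% by the same test. The 8 members with the largest difference on the log2 scale were Cenpe at 1.86, Pttg1 at 1.85, Espl1 at 1.69, Bub1 at 1.64, Cenpk at 1.63, Kif11 at 1.56, Cenpf at 1.55 and Ccnb2 at 1.55. In each of these 8 genes both exon 2 mutant arrays lay above both wild-type arrays and both trap arrays lay below both knockout arrays. They were picked by this same difference of the same arrays, so that separation adds no support. Of 13819 genes tested, 5906 had the former separation and 7283 the latter. The feeder markers differed between the same comparisons with a median of -4.88 (17 of 17 past the threshold), and their part in these differences was not tested.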

How the results depend on the processing

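Of 221 calls of single members over all comparisons, 181 kept their direction and stayed past the threshold under every alternative fitted for its comparison. The direction reversed for Nuf2 in the knockout against wild-type after cyclic loess (-0.063) and for Cenpa in the exon 2 mutant against the knockout when all probe sets were averaged (0.037). For the trap line against wild-type the count was 10 members at an adjusted p under 0.01, 15 with arrays centred on the stem cell markers (an alternative chosen after seeing the data) and 12 to 25 when 1 array was left out. At 1.5-fold, the knockout against wild-type had 10 members after cyclic loess, and the trap line against the knockout had 19 with averaged probe sets. The exon 2 mutant against the knockout had 1 after cyclic loess, 4 with median-centred arrays, 1 with averaged probe sets, 5 with arrays centred on the stem cell markers, and 1 to 3 when 1 array was left out. The cause was not tested.

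Replicate numbers are shared between groups by number only, and deviations of same-numbered arrays correlated at -0.28 to 0.17. With the replicate number as a block, members called were 30 in the exon 2 mutant and 36 in the knockout against wild-type, 21 in the trap line against wild-type and 37 against the knockout, 24 and 33 in the exon 2 mutant against the knockout and the trap line, and 36 for the difference of both Gtf2i comparisons. With 2 arrays a group and 1 line per genotype, small differences and line effects are beyond these data.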
